A study of Arabidopsis thaliana with 12 samples.

Results

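The mTERF family genes AT1G62150 on chromosome 1 and AT5G55580 (mTERF9) on chromosome 5 were followed in Arabidopsis thaliana roots. They were read by probe 3763 and probe 800. These are the single-gene probes that the platform annotation gives for the genes, 2 of the 3439 probes measured and of 692 that name 1 gene. The pair was picked with the lower levels in the mutant already known, so the difference between mutant and wild type in these genes is given as a description, with no test.

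Total RNA came from 6 samples of the aap3 mutant, in which AAP3, an amino acid permease known from the root vasculature, is absent. Another 6 were from wild-type (WT) plants, and both groups were of ecotype Wassilevskija. The labels describe the material as roots and give no allele, age or growth condition. They do not say whether replicates came from separate plants or pools, so each p-value covers the spread among these samples alone, which may be technical. None of the 14 root marker genes listed had a single-gene probe, and AAP3 was not analysed here, so neither the tissue nor the mutation was checked from the array.

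mTERF proteins are built of repeated pairs or triplets of helices that form a curved surface for binding nucleic acids. The family was named after a human factor that ends transcription in mitochondria. Plants have many more members than animals, they are encoded in the nucleus, and nearly all enter mitochondria or plastids, where different members act in transcription, intron splicing or ribosome assembly. mTERF9 is a plastid protein known for its part in assembling the chloroplast ribosome, and its loss alters chloroplast development and responses to salt and abscisic acid. AT1G62150 lies in a stretch of chromosome 1 that holds 10 of the 36 family genes listed here, a tandem group of close relatives. Probe sequences were not used here, so whether probe 3763 also reads such relatives was not tested.

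Values are deposited intensities on a linear scale whose unit is unstated, and levels are compared only within a probe. Both probes stood above the floor used for dim probes, 0.200 times the sample median, in all 12 samples. Sample medians were 0.490 ± 0.0107 in aap3 and 0.514 ± 0.0178 in WT (SD, n = 6 each), so the aap3 mean lay 4.66% under the WT mean.

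AT1G62150 was at lower intensity in aap3 roots. It read 0.375, 0.347, 0.363, 0.486, 0.378 and 0.408 in aap3 replicates 1 to 6, against 0.573, 0.570, 0.561, 0.621, 0.467 and 0.476 in WT replicates 1 to 6. The aap3 samples lay low and close together except replicate 4, which stood above WT replicates 5 and 6, so the groups overlapped. The means were 0.393 ± 0.0498 in aap3 and 0.545 ± 0.0604 in WT (SD, n = 6 each), 27.8% lower in aap3. After each sample was scaled to its median and the log2 values were quantile normalised, the difference between aap3 and WT was -0.40 ± 0.08 (SE), or 1.32-fold lower. In whole roots, fewer cells of a type and less of the transcript per cell cannot be told apart.

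AT5G55580 was also at lower intensity in aap3 roots. It read 1.14, 1.14, 1.44, 0.833, 1.17 and 1.15 in aap3 replicates 1 to 6, against 1.37, 1.60, 1.81, 1.41, 1.98 and 2.14 in WT replicates 1 to 6. Here aap3 replicate 3 stood above WT replicates 1 and 4, and aap3 replicate 4 was the lowest of all 12 samples. The means were 1.15 ± 0.191 in aap3 and 1.72 ± 0.312 in WT (SD, n = 6 each), 33.3% lower in aap3. On the normalised log2 scale the difference was -0.51 ± 0.15 (SE), or 1.43-fold lower. The coefficient of variation within a group was 16.7% in aap3 and 18.2% in WT for AT5G55580, and 12.7% in aap3 and 11.1% in WT for AT1G62150.

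**Figure D1:**
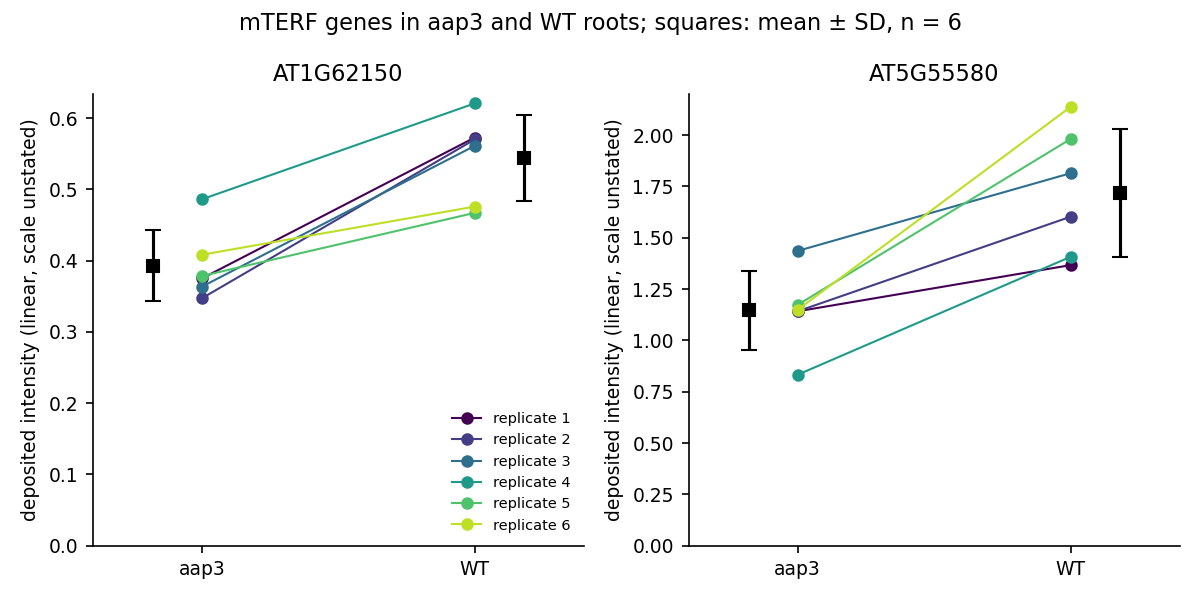
Deposited intensity (linear, unit unstated) of AT1G62150 and AT5G55580 in each sample, with lines joining aap3 and WT samples of the same replicate number and squares giving the mean ± SD (n = 6 each). Every line is lower at its aap3 end, and in each gene 1 aap3 sample stands above 2 WT samples.

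Across all probes, limma (lmFit and eBayes, Benjamini-Hochberg adjusted p under 0.05) called 86 of 3439 probes lower in aap3, or 2.50%. AT1G62150 was among them and AT5G55580 was not, 1 of the 2 genes. A block for the replicate number raised this to 293 probes, or 8.52%, and both genes were among them. Same-numbered samples deviated together across probes (r of 0.728 to 0.755 in the 6 pairs), so a block was fitted. It takes the 6 pairs as independent, while neighbouring pairs resembled each other, as given below. With pairs 1 and 2, 3 and 4, and 5 and 6 averaged, the block left 0 probes called. Nothing is read from these counts, because the genes were chosen from this contrast. For scale, 2.65% of all probes had a log2 difference as low as that of AT1G62150 or lower, and 0.960% one as low as that of AT5G55580.

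Taken pair by pair, both genes were lower in aap3 in 6 of 6 same-numbered pairs, a pattern that 11.9% of all probes had. For AT1G62150 the log2 difference between aap3 and WT was -0.54, -0.64, -0.55, -0.27, -0.22 and -0.16 in pairs 1 to 6. For AT5G55580 it was -0.19, -0.44, -0.28, -0.67, -0.69 and -0.81 in pairs 1 to 6. Pairs 1 to 3 held the 3 larger differences of AT1G62150, and pairs 4 to 6 the 3 larger ones of AT5G55580. On the deposited scale the aap3 to WT ratio of AT1G62150 ran between 0.609 in pair 2 and 0.858 in pair 6, and that of AT5G55580 between 0.538 in pair 6 and 0.835 in pair 1.

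**Figure D2:**
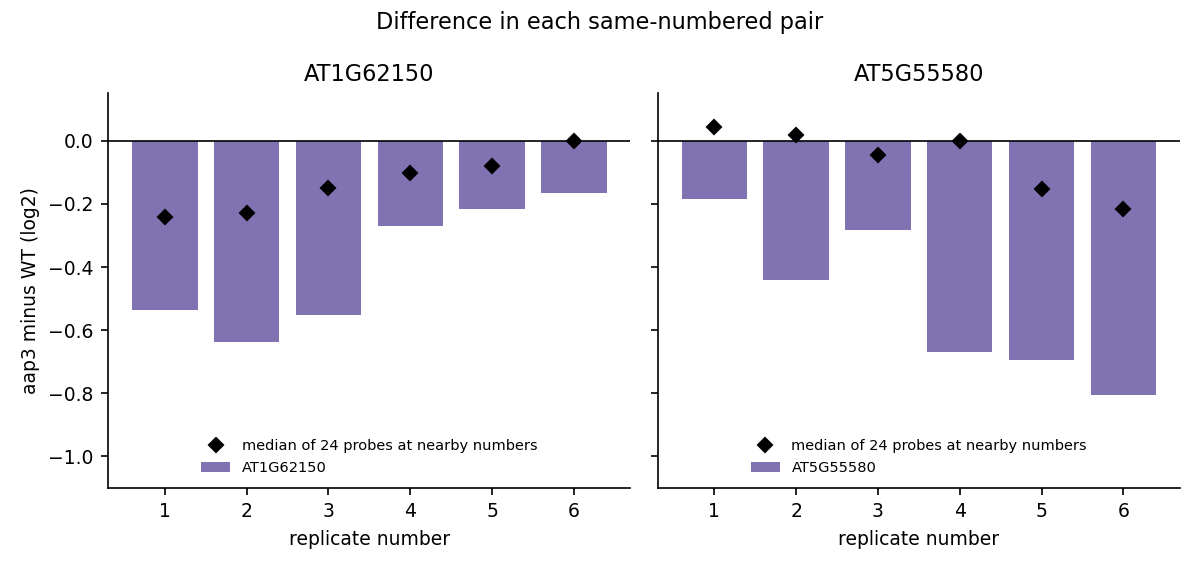
Log2 difference (aap3 minus WT) in each same-numbered pair for AT1G62150 and AT5G55580 (bars), with the median difference of the 24 probes at the nearest probe numbers (diamonds). All 12 bars are below 0. The bars of AT1G62150 are longest in pairs 1 to 3 and those of AT5G55580 in pairs 4 to 6.

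The sizes of the paired differences ran opposite ways in the 2 genes, a relation that did not pass its test. Over the 6 pairs Pearson's r between the genes was -0.87 (two-sided exact permutation p = 0.0694) and Spearman's rho -0.77 (exact permutation p = 0.103). Without pairs 2 and 6, the farthest from the median of AT1G62150, r was -0.98 over 4 pairs. Leaving out pair 2 alone, through its aap3 or its WT sample, gave -0.99 over 5 pairs (exact permutation p = 0.025). Leaving out any other pair gave an exact permutation p of 0.05 to 0.158, and r was weakest, at -0.81, without a sample of pair 6. With nearby probes subtracted r was -0.53 (exact permutation p = 0.274). Of 2858 probes above the floor in all 12 samples, 2.38% had an r with AT1G62150 this low or lower, and the median r was 0.03. These tests take the pairs as independent, while neighbouring pairs resembled each other: across all probes the differences correlated at 0.540 to 0.649 within the couples formed by pairs 1 with 2, 3 with 4 and 5 with 6, against 0.318 to 0.349 for any other 2 pairs. Averaged over these couples, AT1G62150 differed by -0.59, -0.41 and -0.19, and AT5G55580 by -0.31, -0.47 and -0.75.

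Opposite variation of the genes was also seen within WT roots alone, a measure that does not involve the contrast with aap3. The same WT values enter the pair differences above, so the relation in WT is not independent of the relation over pairs. Among the 6 WT samples, r between the normalised log2 values of the genes was -0.94 (exact permutation p = 0.0153) and rho -0.89 (exact permutation p = 0.0333). WT replicates 5 and 6 had the highest AT5G55580 and the lowest AT1G62150, and without these 2 samples r was -0.88 over the remaining 4. These replicates form 1 of the couples that resembled each other, so this p too takes as independent samples that may not be. Among the 6 aap3 samples r was -0.78 (exact permutation p = 0.0875) and rho -0.26 (exact permutation p = 0.658), and r was -0.74 without replicates 2 and 4. Adjusted over the 6 values of r and rho by Benjamini-Hochberg, none passed 0.05, with the smallest adjusted permutation p at 0.0917. Both genes were thus lower in aap3 in each pair, with no positive relation between the sizes.

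**Figure D3:**
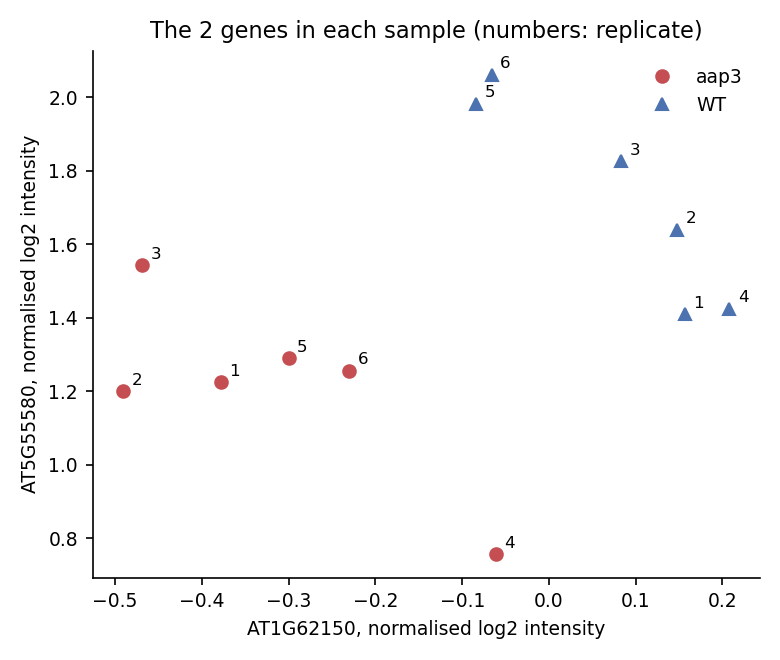
Normalised log2 intensity of AT1G62150 (horizontal) and AT5G55580 (vertical) in each aap3 (circles) and WT (triangles) sample, labelled by replicate number. Most aap3 points lie to the lower left of the WT points, while the WT points run downward to the right (r = -0.94, n = 6).

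The probes with nearby numbers were set beside both genes. Around AT1G62150, the 24 probes nearest in number had a median log2 difference between aap3 and WT of -0.16, and 16 of the 24 were below 0, against 47.6% of all probes. In pairs 1 to 6 their median was -0.24, -0.23, -0.15, -0.10, -0.08 and 0.00, closest to 0 in pairs 4 to 6, as in the gene itself. Around AT5G55580 the overall median was -0.06, and in pairs 1 to 6 it was 0.04, 0.02, -0.05, 0.00, -0.15 and -0.22. This median was lowest in pairs 5 and 6, which also held the largest differences of the gene, and not below 0 in pairs 1, 2 and 4. Once the deviations of these neighbours were subtracted in each sample, both genes were still lower in aap3 in 6 of 6 pairs, by -0.34 ± 0.06 for AT1G62150 and -0.50 ± 0.09 for AT5G55580 (SE), and all aap3 values lay below all WT values in both genes, as they did in 2.33% of all probes. No source used here says whether a probe's number stands for its place on the array.

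No other probe of the family was called lower in aap3 after normalisation. As 2.50% of all probes were called lower, nothing is read from this for 12 probes. Membership was taken from general knowledge of the family, since the gene table names only 3 genes by that term. The 36 listed genes had 6 other single-gene probes, and 6 further probes listed several genes that all belong to the family. Of these 12 probes, limma called 0. An unadjusted limma p under 0.05 was seen in 1 of them, against 609 of all 3439 probes. Differences were below 0 in 6 of the 12 and above 0 in 6. This split depends on the scaling between samples. With deposited values unscaled, 11 of the 12 lay below 0, with a median of -0.10 (all probes, -0.05). AT3G18870 was then called lower (-0.14, limma adjusted p = 0.0275). Unscaled, 210 of all 3439 probes were called lower, so nothing is read from this call. After normalisation the median log2 difference of the 12 between aap3 and WT was -0.02, against 0.00 over all 3439 probes. Of all probes, 2.50% were called lower and 2.50% higher. With the replicate block 1 of the 12 was called, as higher in aap3. Of all probes 8.55% were called higher with the block, so this count is close to the share over all probes.

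That 1 probe reads AT3G46950. It read 0.574, 0.727, 0.784, 0.823, 0.743 and 0.767 in aap3 replicates 1 to 6, against 0.632, 0.561, 0.593, 0.728, 0.622 and 0.606 in WT replicates 1 to 6. The aap3 samples were higher in 5 of 6 pairs, pair 1 being the exception, and the groups overlapped only through aap3 replicate 1 and WT replicate 4. The means were 0.737 ± 0.0864 in aap3 and 0.624 ± 0.0569 in WT (SD, n = 6 each). The log2 difference was 0.32 ± 0.09 (SE), with a limma adjusted p of 0.0569 without the block and 0.0441 with it. Without aap3 replicate 1, and with no block, it was 0.39 (limma adjusted p = 0.00423). Leaving out any other sample, with no block, gave no call (limma adjusted p of 0.0556 to 0.118). Median scaling and an offset before log2 gave none either (limma adjusted p = 0.0576 and 0.0531). With values unscaled the log2 difference was 0.24 (limma adjusted p = 0.15). With nearby probes subtracted it was 0.49 (limma adjusted p = 0.0151, and 0.00416 with the block). With couples of neighbouring replicates averaged it was not called (limma adjusted p = 0.331, and 0.159 with the block). The probe, number 3755, is among the 24 neighbours of the AT1G62150 probe, whose median difference was below 0.

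Among the other family genes with a probe of their own, AT1G62010 and AT1G61990 belong to the same stretch of chromosome 1 as AT1G62150. AT1G62010 averaged 0.453 ± 0.108 in aap3 and 0.481 ± 0.133 in WT, a log2 difference of 0.00 ± 0.22 (limma adjusted p = 1). AT1G61990 averaged 0.706 ± 0.0522 in aap3 and 0.769 ± 0.0506 in WT, a log2 difference of -0.03 ± 0.05 (limma adjusted p = 0.845). Neither reached the threshold with the replicate block (limma adjusted p = 1 and 0.681).

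Of the remaining genes, AT3G18870 had the smallest spread, at 1.38 ± 0.0393 in aap3 and 1.52 ± 0.0716 in WT. Its log2 difference was -0.05 ± 0.04 (limma adjusted p = 0.716, and 0.0902 with the replicate block). AT1G79220 differed by 0.03 ± 0.09 (limma adjusted p = 0.954). AT4G09620 differed by 0.00 ± 0.18 (limma adjusted p = 1), and its WT samples ranged widely, between 0.868 and 1.83, against 0.963 to 1.34 in aap3.

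Among the probes that list several family genes, the log2 differences lay between -0.21 and 0.06, and none is assigned to a single gene. Probe 2165 had the lowest, at -0.21 ± 0.22, and was lower in aap3 in 6 of 6 pairs (limma adjusted p = 0.747, and 0.0638 with the replicate block). Probe 4364 lists AT5G55580 beside 1 other gene. It averaged 0.356 ± 0.0684 in aap3 and 0.394 ± 0.0875 in WT, with a log2 difference of -0.07 ± 0.16, and was lower in aap3 in 3 of 6 pairs (limma adjusted p = 0.941). Its difference was smaller than that of probe 800, and the contrast between the probes was not tested.

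**Figure D4:**
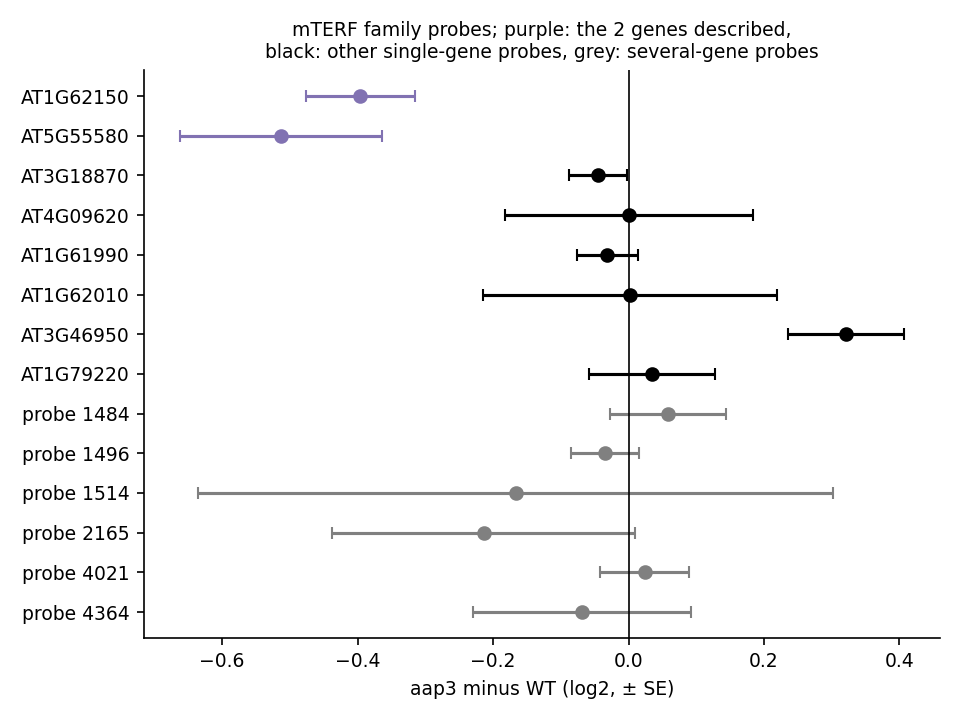
Log2 difference between aap3 and WT (point) with its SE (bar) for the 14 probes of the mTERF family, the 2 genes described at the top, then 6 other single-gene probes and 6 probes that list several family genes. AT1G62150 (-0.40) and AT5G55580 (-0.51) lie farthest to the left, and AT3G46950 (0.32) farthest to the right.

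The genes whose pattern was most like each of the 2 were different ones. Likeness was Pearson's r over the 12 samples of normalised log2 values, among 564 other single-gene probes above the floor throughout, and it contains the difference between the groups. Nearest to AT1G62150 were AT4G31530 (r = 0.84), AT4G21170 (0.77), AT4G17070 (0.76), AT1G50770 (0.76) and AT3G57630 (0.76). Over deviations from the group means these values were 0.40, 0.04, 0.25, 0.37 and 0.43, each below the value over all 12 samples. The difference of these genes between aap3 and WT ran from -0.77 for AT4G17070 to -0.23 for AT1G50770 on the log2 scale.

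Nearest to AT5G55580 were APS4 (AT5G43780), an ATP sulfurylase of sulfate assimilation (r = 0.82), then AT3G50880 (0.80), AT1G11800 (0.79), AT5G17630 (0.78) and AT3G04210 (0.78). Over deviations from the group means these values were 0.73, 0.72, 0.75, 0.53 and 0.56, each also below the value over all 12 samples. The genes were ranked on an r that contains these deviations. APS4 averaged 0.272 ± 0.0460 in aap3 and 0.340 ± 0.0420 in WT (SD, n = 6 each). AT1G62150 ranked 174th of these 564 in likeness to AT5G55580, with an r of 0.29 over the 12 samples and -0.84 over deviations from the group means. These correlations are descriptions over samples that were normalised together. The sources used here do not say whether samples shared arrays.

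Other parts of organelle gene expression could not be set beside the family. No single-gene probe was found for the 21 listed genes of organelle transcription and nucleoids, nor for the pentatricopeptide repeat, organelle ribosomal protein and CRM-domain splicing lists. Of 12 genes listed as markers of green shoot tissue, 2 had a probe: SBPASE and PRK, enzymes of the Calvin cycle. Both stood above the floor in 6 of 6 samples of each group, and what this means for the tissue was not tested. Neither was called, with a limma adjusted p of 0.87 for SBPASE, at -0.15 on the log2 scale, and 0.498 for PRK, at 0.14.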

How the data were processed

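The authors deposited 1 linear intensity per probe and sample, with the array type, dyes, background correction and normalization not given in the sources used here. Exact zeros made up 5.21% of the values. Each sample was divided by its median, values under the 5th percentile of those above 0 were raised to it (9.95% of values lay at or below it), and log2 values were quantile normalized because interquartile ranges differed by 0.135, over a limit of 0.1. Differences near the floor are understated. All 3439 probes were fitted with limma 3.58.1 in R 4.3.3, without covariates, at a Benjamini-Hochberg adjusted p of 0.05. The fit was tested on simulated data with independent pairs, so its behaviour with neighbouring pairs that resemble each other was not tested. The number of samples limits the precision. Same-numbered samples deviated together in all 6 pairs, so the replicate number was taken, from the data, to pair them, and a fit with that block is given where it changes a call.

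The genes and lists were chosen with earlier results of these data known. Probes were named by the platform annotation that GEO holds, matched through the TAIR10.1 gene table (690 of 692 single-gene probes). Genes named were the 2 genes, other mTERF genes with a probe, and the 5 single-gene probes most like each. The plan was to take the family from the gene table; as this names 3 genes, a list of 36 from general knowledge replaced it. Tested alternatives were median scaling, no scaling, an offset before log2, probes at the floor left out, the replicate block, couples of neighbouring replicates averaged, nearby probes subtracted, and each sample left out.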

Additional observations from a re-analysis of the deposited data

Results flagged for a closer look

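Among 48 checks for a sample far from the others of its group, over the mTERF probes and the genes most like the 2, 2 stood out, about the 1 in 20 that chance gives. AT3G46950 was low in aap3 replicate 1, at 0.23 on the normalised log2 scale against 0.57 to 0.73 in the other aap3 samples, a gap of 0.666 of the group's range. That sample is the 1 aap3 sample below its WT partner in this gene. For AT1G62010 it was WT replicate 2 that lay low, at -1.02, with the remaining WT samples between -0.17 and 0.24. This gap was 0.675 of their range with that sample. Neither AT1G62150 nor AT5G55580 had such a sample.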

How the results depend on the processing

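AT1G62150 and AT5G55580 stayed lower in aap3 under each of the 21 alternatives. The values moved by less than the SD of the pair differences, 0.20 for AT1G62150 and 0.25 for AT5G55580. Leaving out each sample in turn gave -0.45 to -0.36 for AT1G62150 and -0.58 to -0.42 for AT5G55580, and 128 to 189 called probes. An offset before log2 gave -0.26 and -0.43, smaller by construction. The count of 172 called probes became 281 with deposited values unscaled (71 higher, 210 lower), 587 with the replicate block and 858 with the block and nearby probes subtracted. With couples averaged, and so 3 values per group, limma gave 1 called probe, and 373 probes had an unadjusted p under 0.05. The replicate block on these averages left 0, with 755 probes under that unadjusted p. Neither gene was called on the averages. AT5G55580 was not called on leaving out any sample but was called unscaled, with nearby probes subtracted and with the block. Nothing is read from the calls of these 2 genes, because they were chosen from this contrast. The other 12 family probes gave 0 to 2 calls, those of AT3G46950, AT3G18870 and probe 1484. The 2 calls, of AT3G46950 and probe 1484 as higher, came with the block and nearby probes subtracted. That setting called 858 of all 3439 probes, so nothing is read from them. The correlation of pair differences lay between -0.99 and -0.81 when a sample was left out (exact permutation p of 0.025 to 0.158). The causes of the other changes were not tested. With intensities alone, signal over background was not used here.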
